A study of Mus musculus with 30 samples.

Results

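The comparison sets the abdominal aorta of mice given angiotensin II together with valsartan against the aorta of mice given saline, and asks what still differed from saline while the angiotensin receptor was blocked. It rests on 10 of the 30 libraries of the series, chosen by their group labels: 5 labelled AngII+VAL and 5 labelled Control. All mice were wild-type C57BL/6, and the labels give no age. AngII+VAL mice received angiotensin II at 500 ng/kg/min and valsartan at 10.4 mg/kg/d for 28 days, and Control mice received saline for the same time. A further 5 libraries labelled AngII, from mice given the same infusion without a compound, are shown beside them where they help to read a value. No group received valsartan without angiotensin II, so the effect of the drug in uninfused mice cannot be told apart from its effect on the infusion.

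Angiotensin II is a peptide hormone that acts mainly through the type 1 angiotensin receptor, a G-protein-coupled receptor that mice carry as the products of Agtr1a and Agtr1b. In the vessel wall the receptor raises calcium in smooth muscle cells and makes them contract, and over weeks its activation is known for thickening of the wall and deposition of collagen, fibronectin and other matrix proteins. Valsartan occupies that receptor and keeps angiotensin II from activating it, and it is used to lower blood pressure. The receptor also restrains the release of renin by the kidney, and its blockade is known to raise renin there.

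Total RNA depleted of ribosomal RNA was sequenced, and the values are FPKM, which divides the fragments of a transcript by its length and by the size of the library, summed over the annotated transcripts of a gene that were listed for both groups. The reads behind a library, recovered from its smallest values, numbered 74420000 to 79810000. Genes of contractile smooth muscle were high in every library, with a mean log2(FPKM + 1) over the list of 6.36 to 6.87 in AngII+VAL and 6.2 to 6.68 in Control, and over the 24 endothelial genes it was 3.81 to 3.96 and 3.71 to 3.98, so the labelled tissue carried its defining markers. Libraries within a group differed in genes of other tissues. Skeletal muscle genes were high in all 5 AngII+VAL libraries and in Control 1 and 2, and low in Control 3, 4 and 5. Neuron genes were high in AngII+VAL 4 (score 3.63) and, less so, in Control 1 (2.17). In bulk tissue, fewer cells of a type and less RNA per cell cannot be told apart. The library kit did not mark strand, so overlapping and antisense genes share reads.

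Of 11928 genes tested, 2 were higher and 1 was lower in AngII+VAL than in Control with limma at a Benjamini-Hochberg adjusted p under 0.05, which is 0.0168% and 0.00838% of the genes (0.0252% in all). The higher genes were the kallikrein gene Klk1 and the inositol oxygenase gene Miox, and the lower gene was the kinase gene Rps6kb1. The counts moved with single libraries: leaving out Control 4 gave 10 higher and 8 lower genes, leaving out AngII+VAL 2, AngII+VAL 3, Control 1 or Control 3 gave 1 higher gene, leaving out AngII+VAL 1, AngII+VAL 4 or Control 2 gave 2 lower genes, and leaving out AngII+VAL 5 gave 3. The labels do not state that each library came from a separate animal, and the p-values measure the spread between these libraries, which may be partly technical. Without adjustment, 301 genes (2.52%) were higher and 510 (4.28%) lower at p under 0.05 (6.8% in all). By sign alone, 47.7% of genes had a higher and 52.3% a lower fitted level in AngII+VAL. The ranges of the groups did not overlap for 50 higher genes (0.419%) and 143 lower genes (1.2%). Across all genes the median log2 fold change was −0.012, with 90% of genes between −0.50 and 0.52, and the median standard error (SE) was 0.17. Fold changes are on the log2(FPKM + 1) scale, which understates the change of low genes. For comparison, AngII against Control and AngII+VAL against AngII each gave 0 genes past the threshold in a fit of the 15 libraries, with 1828 (15.3%) and 1768 (14.8%) at an unadjusted p under 0.05. These comparisons share libraries, so their values are shown side by side and no overlap between them is drawn.

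Klk1 (ENSMUSG00000063903, GRCm38 chr7:44225360-44229618, plus strand) encodes tissue kallikrein, a serine protease that releases kinins and is made in the distal kidney tubule and in glands. It was at 6.13, 4.12, 3.51, 3.62 and 4.1 FPKM in AngII+VAL 1 to 5, against 1.12, 0.0534, 1.96, 0.107 and 1.54 in AngII and 0.0562, 0.911, 0, 0.324 and 0.335 in Control. Every AngII+VAL library lay above every library of the other 2 groups. Klk1, like Miox, reached the tested filter of 1 FPKM in 5 libraries through AngII+VAL alone. The separation of either gene from Control is therefore not read as support. The log2 fold change from Control was 2.02 (SE 0.20, limma adjusted p = 0.0078). Kallikrein genes form a family of close copies on this chromosome, so reads could be shared among them. Miox (ENSMUSG00000022613, GRCm38 chr15:89334398-89337015, plus strand) encodes myo-inositol oxygenase, an enzyme of the proximal tubule of the kidney. It was at 2.89, 2.52, 2.42, 2.27 and 2.27 FPKM in AngII+VAL, 0.854, 0, 1.17, 0 and 1.01 in AngII and 0, 0.457, 0, 0.626 and 0 in Control, again without overlap. Its log2 fold change was 1.54 (SE 0.17, limma adjusted p = 0.012). Both calls were lost in 3 alternative fits: a pseudocount of 0.1 (adjusted p = 0.19 for Klk1 and 0.26 for Miox), voom on the recovered reads (0.34 and 0.37, with log2 fold changes of 4.96 and 6.12), and the skeletal muscle and neuron scores as terms (0.084 and 0.28). The Miox call also ended without AngII+VAL 2 or 3 or Control 1 or 3 (adjusted p = 0.055 to 0.067). A model over all 30 libraries ended the calls of Klk1, Miox and Rps6kb1 (adjusted p = 0.095 each).

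**Figure D1:**
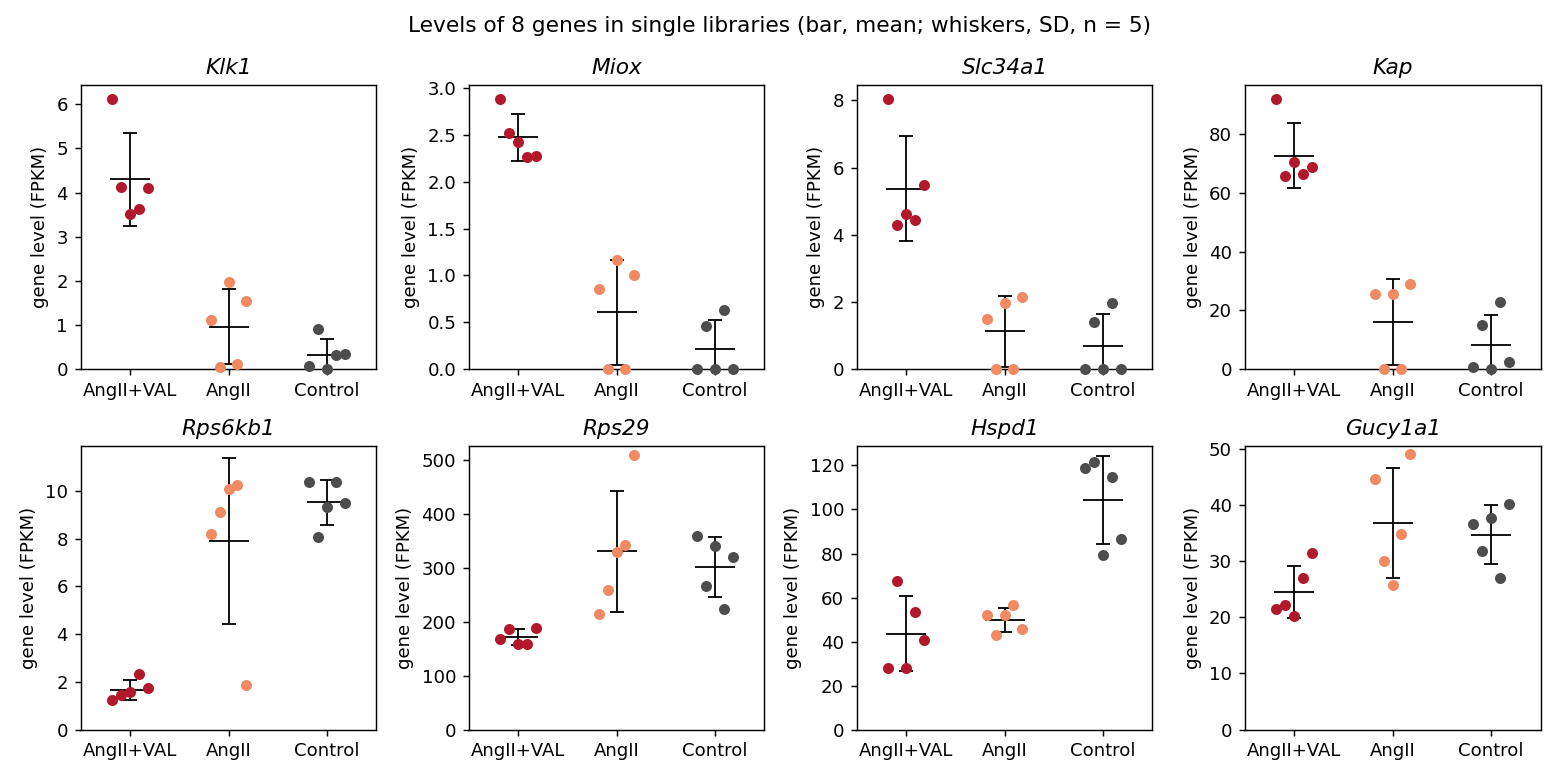
Gene levels in FPKM in single libraries of AngII+VAL, AngII and Control, one panel per gene; the bar is the mean and the whiskers are the SD (n = 5). The 4 genes of the upper row lie higher in all 5 AngII+VAL libraries than in the libraries of the other 2 groups, whereas Rps6kb1, Rps29 and Hspd1 in the lower row lie below every Control library and Gucy1a1 overlaps with Control. Klk1, Miox and Slc34a1 met the filter of 1 FPKM in 5 libraries through AngII+VAL, so their ranges are not read as support.

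The next genes on the higher side did not pass, and most of them are also known from the kidney. Cltrn, which encodes the kidney membrane protein collectrin, was at 5, 3.44, 3.35, 3.77 and 3.38 FPKM in AngII+VAL and 0, 0.899, 0, 1.34 and 0 in Control (log2 fold change 1.82, SE 0.26, adjusted p = 0.12). Slc34a1, the sodium-phosphate cotransporter of the proximal tubule, was at 8.04, 4.3, 4.6, 4.43 and 5.48 FPKM in AngII+VAL against 0, 1.4, 0, 1.98 and 0 in Control (log2 fold change 2.07, SE 0.35, adjusted p = 0.15). In both genes the lowest AngII+VAL library was above the highest Control library. Most Control libraries were under 1 FPKM for both genes and for Keg1. These genes thus met the filter of 1 FPKM in 5 libraries through AngII+VAL, and their ranges are not read as support. Keg1, a gene named for its expression in kidney, averaged 3.13 ± 0.926 FPKM in AngII+VAL and 0.366 ± 0.511 in Control (SD, n = 5 each; log2 fold change 1.64, SE 0.25, adjusted p = 0.12). Also among the genes with the smallest p on this side were Actc1, cardiac actin, with 22.8, 23.7, 16.3, 25.7 and 23.6 FPKM in AngII+VAL against 7.38, 6.06, 6.6, 2.41 and 11.2 in Control (log2 fold change 1.69, SE 0.29, adjusted p = 0.15), and the pseudogene Gm11249 (log2 fold change 0.85, SE 0.15, adjusted p = 0.15). Actc1 was also far from even in the infused mice without valsartan, at 8.1, 503, 1.1, 11.1 and 13.5 FPKM in AngII 1 to 5.

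Of the 14 genes of the kidney list, 5 were listed for both groups and 4 were tested. The tested ones were Miox, Slc34a1, Kap and Nphs1. Miox passed, and it met the filter of 1 FPKM in 5 libraries through AngII+VAL alone, so no count over these genes is read as support. The summed level of the 5 was 75.7 to 103 FPKM in AngII+VAL, 0.288 to 47.4 in AngII and 6 to 25.6 in Control. Kap, the androgen-regulated protein of the proximal tubule, was the most abundant of them and was named after its values were seen. It had 92.1, 65.6, 70.5, 66.4 and 68.9 FPKM in AngII+VAL, 25.5, 0.0721, 25.6, 0 and 29 in AngII and 0.512, 14.9, 0, 22.7 and 2.37 in Control (log2 fold change 4.01, SE 0.82, adjusted p = 0.25). The AngII+VAL libraries were high and close to each other, whereas libraries of the other groups ranged between none and a moderate level. In the compound groups of the same series Kap ran from 0.213 to 26.8 FPKM in AngII+ETH, 0 to 66.7 in AngII+BAI and 0 to 27.8 in AngII+GAS. Nphs1, nephrin of the podocyte, did not separate the groups, at 0.00665, 2.94, 0, 2.52 and 0 FPKM in AngII+VAL and 6.6, 0, 6, 0 and 5.48 in Control (log2 fold change −0.93, SE 0.75, adjusted p = 0.86). Aqp2, the water channel of the collecting duct, was too low to test, at 0.27, 0.322, 1.13, 0.535 and 0.548 FPKM in AngII+VAL against 0.302, 0.293, 0, 0.263 and 0.291 in Control. Levels of further members, such as Slc12a1, Slc12a3, Cubn, Slc5a2 and Cdh16, were not analysed here. The part of kidney RNA in the values of Klk1, Miox and the other kidney genes was not tested.

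Genes with no shared transcript are described apart from the tested genes. A transcript entered a group's list only when its mean reached 0.5 FPKM in that group or in AngII. For 236 genes the transcripts were listed for AngII+VAL alone, and for 163 for Control alone. Among the 236, 10 had at least 1 FPKM in all 5 AngII+VAL libraries, and among the 163 there were 0 such genes in Control. The listing rule itself picks the 236 for a higher mean in AngII+VAL, so these counts and levels are not read as support for a difference. Those named here, after their values were seen, are Acsm2, Akr1c21, Cyp2j5, Mep1a, Slc22a12, Sult1d1, Ugt2b38, Ugt3a2 and Umod. Umod, uromodulin of the thick ascending limb and a member of the kidney list, had 2.82, 1.84, 2.15, 2.29 and 2.32 FPKM in AngII+VAL 1 to 5. Akr1c21, a ketosteroid reductase, had 3.96, 2.32, 3, 2.79 and 2.85 FPKM, and Slc22a12, the urate transporter of the proximal tubule, had 1.98, 1.13, 1.23, 1.27 and 1.21. Mep1a, the metalloprotease meprin of the tubule brush border, had 1.84, 1.34, 1.3, 1.3 and 1.54 FPKM. A level of at least 1 FPKM in all 5 libraries leaves out uneven genes, so nothing is read from how close these values lie. Lrp2 (megalin) and Slc22a6 (an organic anion transporter), both of the kidney list, were on the AngII+VAL list alone too. Lrp2 had 0.975, 0.474, 0.541, 0.586 and 0.656 FPKM, and Slc22a6 had 0.955, 0.618, 0.93, 0.679 and 0.782. Values of these genes in Control were not used here. Under the listing rule each of their transcripts averaged under 0.5 FPKM there and in AngII. Setting values that were not listed to 0 gave 14 higher and 6 lower genes, and this fixes Control at 0 for these 10 genes, so nothing is read from their calls.

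Many genes of the kidney tubule are known to be bound by the HNF1 transcription factors. Their half-site GTTAAT, or ATTAAC on the other strand, was searched in the 250 bases before the start of each gene in the RefSeq promoter table (GRCm38.p6), and was found in 6.43% of 32851 windows. Of the 14 kidney genes, 11 had a window, and 4 of them held the motif: Miox, Slc34a1, Umod and Slc22a6. The part of 3 of these windows that also lies before the gene in GENCODE M21 is shown, 5′ to 3′ on the strand of the gene, with the motif in capitals, for the called gene and 2 genes listed for AngII+VAL alone. They are Miox at chr15:89334223-89334397 (plus strand), Umod at chr7:119479283-119479512 (minus strand) and Slc22a6 at chr19:8617746-8617995 (plus strand).
Miox: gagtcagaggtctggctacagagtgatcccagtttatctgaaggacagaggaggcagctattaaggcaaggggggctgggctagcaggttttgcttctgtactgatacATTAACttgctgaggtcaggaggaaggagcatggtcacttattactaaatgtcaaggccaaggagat
Umod: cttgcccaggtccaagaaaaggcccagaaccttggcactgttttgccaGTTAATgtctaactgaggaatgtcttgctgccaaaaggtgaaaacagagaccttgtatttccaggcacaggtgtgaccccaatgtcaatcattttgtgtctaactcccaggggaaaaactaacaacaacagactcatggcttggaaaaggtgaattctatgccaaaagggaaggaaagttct
Slc22a6: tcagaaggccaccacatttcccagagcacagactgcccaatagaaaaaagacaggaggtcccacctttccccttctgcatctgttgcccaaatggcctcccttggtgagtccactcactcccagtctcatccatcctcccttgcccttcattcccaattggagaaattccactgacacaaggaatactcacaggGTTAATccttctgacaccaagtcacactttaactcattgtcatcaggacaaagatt
A match of 6 letters is a description of the sequence, and no binding was measured here. The 7 other windows, of Slc12a1, Kap, Lrp2, Aqp2, Slc12a3, Nphs1 and Cubn, did not hold these letters.

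Rps6kb1 (ENSMUSG00000020516, GRCm38 chr11:86498871-86544805, minus strand) encodes the ribosomal protein S6 kinase S6K1, which acts in growth signalling downstream of mTOR. Its summed level was 1.24, 1.44, 1.56, 2.35 and 1.75 FPKM in AngII+VAL, 8.21, 9.13, 10.1, 10.3 and 1.89 in AngII and 10.4, 8.06, 9.35, 10.4 and 9.48 in Control (log2 fold change −1.99, SE 0.13, limma adjusted p = 0.00025). All AngII+VAL libraries lay below all Control libraries, and AngII 5 stood with AngII+VAL. Nearly all of the change lay in 1 transcript, Rps6kb1-207, annotated as protein-coding with 5531 nt. It had 0.943, 0.696, 1.22, 1.3 and 0.685 FPKM in AngII+VAL and 9.59, 7, 8.73, 9.34 and 8.89 in Control (log2 fold change −2.31, SE 0.15, adjusted p = 0.00045). The assembled transcript MERGE.4621.2, which has no annotated gene and no position here, had the opposite order. It had 7.16, 8.25, 8.26, 6.52 and 7.5 FPKM in AngII+VAL and 0.0384, 0.0293, 0.00467, 0 and 0.00952 in Control (log2 fold change 3.07, SE 0.12, adjusted p = 6.5e-06). The sum of both was 7.82 to 9.48 FPKM in AngII+VAL and 7.03 to 9.62 in Control. The assembled transcript was the higher of the pair in 5 of 5 libraries of AngII+VAL and in 0 of 5 of Control. In the other infused groups (AngII and the 3 groups given another compound) it was the higher in 6 of 20. It met the filter of 1 FPKM in 5 libraries through AngII+VAL alone, so the counts in AngII+VAL and Control are not read as support. Gene sums leave the assembled transcript out, and the sums of the pair overlapped between the groups. Whether the assembled transcript comes from the Rps6kb1 gene was not tested.

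**Figure D2:**
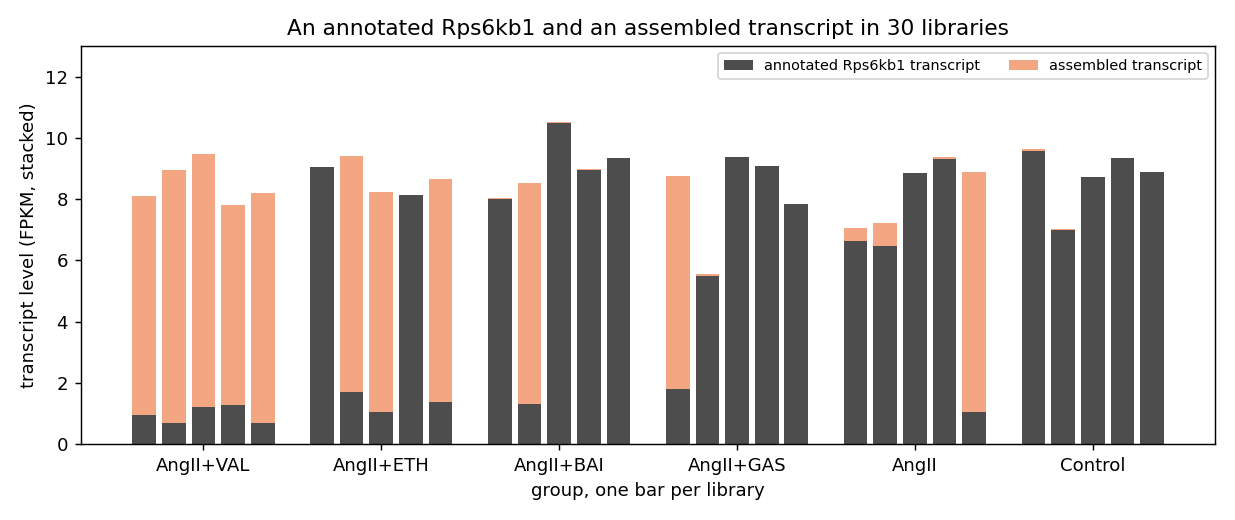
Levels of Rps6kb1-207 and of the assembled transcript MERGE.4621.2 in FPKM, stacked, with one bar per library of each group. In every library one of the transcripts takes most of the sum, the assembled one in all 5 AngII+VAL libraries and the annotated one in all 5 Control libraries. Whether the assembled transcript comes from the Rps6kb1 gene was not tested.

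At transcript level 9 of 23434 transcripts passed (0.0384%), 6 higher (0.0256%) and 3 lower (0.0128%). Leaving out Control 4 gave 25, leaving out AngII+VAL 1 gave 17, and leaving out AngII+VAL 5 gave 5. Besides MERGE.4621.2 and Klk1-201 (the only Klk1 transcript in the sum), the higher side held the assembled MERGE.3004.11, with 1.25, 1.78, 1.57, 1.74 and 2.1 FPKM in AngII+VAL and 0, 0, 0.00922, 0 and 0 in Control (log2 fold change 1.42, SE 0.13, adjusted p = 0.007). Zfp825-203, of a zinc finger gene, had 1.01, 1.94, 1.72, 1.68 and 1.66 FPKM in AngII+VAL against 0.182, 0.106, 0.0337, 0 and 0 in Control (log2 fold change 1.28, SE 0.15, adjusted p = 0.024). These higher transcripts, with MERGE.4621.2 and Klk1-201, reached 1 FPKM in 5 libraries, the filter for transcripts too, through AngII+VAL alone. Their separation from Control is therefore not read as support. MERGE.3004.11 was also at 1.53, 1.91, 0, 0 and 1.62 FPKM in AngII 1 to 5. Zfp825-201 and Zfp825-202 had the opposite order, with means of 0.909 and 0.257 FPKM in AngII+VAL against 1.99 and 0.855 in Control. On the lower side stood Serpinh1-203, a protein-coding transcript of the collagen chaperone HSP47, with 2.34, 6.28, 5.29, 5.64 and 5.87 FPKM in AngII+VAL and 114, 38, 37.4, 30.9 and 46.8 in Control (log2 fold change −3.04, SE 0.36, adjusted p = 0.027). Serpinh1-201, the main transcript of that gene in AngII+VAL, had the opposite order, at 74.8, 44.3, 46.8, 57.2 and 67.4 FPKM in AngII+VAL against 35.4, 32.2, 41.8, 39.2 and 42.9 in Control (log2 fold change 0.57, SE 0.16, adjusted p = 0.41). Limch1-211, a retained-intron transcript of an actin-associated protein gene, had 4.78, 2.93, 2.67, 3.79 and 3.13 FPKM in AngII+VAL and 16.1, 13.6, 21.5, 9.29 and 12.1 in Control (log2 fold change −1.77, SE 0.22, adjusted p = 0.033). Isoform levels depend on the authors' assignment of reads to transcripts that share exons.

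Skeletal muscle genes had the largest median difference of the 45 lists, none of the 19 tested members passed, and the Control libraries were split. All 19 were higher (47.7% of all genes), 6 of them at an unadjusted p under 0.05 (2.52% of all genes), with a median log2 fold change of 2.78. The mean log2(FPKM + 1) over the list was 6.95, 6.21, 4.73, 5.97 and 5.41 in AngII+VAL, 1.75, 2, 2.16, 0.836 and 0.791 in AngII and 5.61, 6.87, 1.02, 1.02 and 1.74 in Control. AngII+VAL was high throughout, AngII was low throughout, and Control 1 and 2 stood with AngII+VAL. Cacna1s, the calcium channel of the muscle T-tubule, had 17.9, 11.3, 2.89, 8.17 and 5.52 FPKM in AngII+VAL and 7.7, 1.94, 0.00427, 0 and 0.0109 in Control (log2 fold change 2.20, SE 0.66, adjusted p = 0.47). Tnnt3, fast troponin T, had 13.1, 16, 22.9, 4.62 and 134 FPKM in AngII+VAL against 12.2, 8.58, 0.185, 0.0546 and 0.251 in Control (log2 fold change 2.89, SE 0.99, adjusted p = 0.58). Acta1, skeletal actin, named after its values were seen, had 1925, 1096, 318, 1043 and 608 FPKM in AngII+VAL and 687, 2242, 4.12, 5.78 and 16.6 in Control. With Control 1 and 2 left out, 46 genes were higher and 3 lower. Those libraries were left out for their high skeletal muscle genes, so calls of such genes in that fit restate the choice. Klk1, Miox and Rps6kb1 passed in that fit too. The part of skeletal muscle RNA in these differences was not tested.

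**Figure D3:**
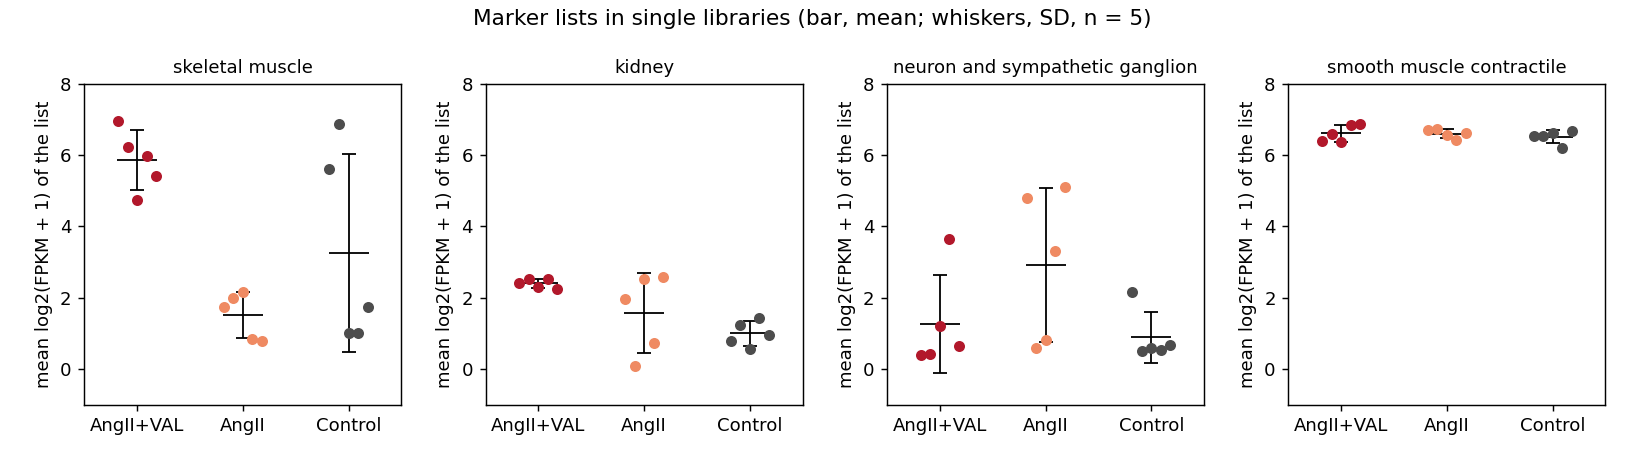
Mean log2(FPKM + 1) over the listed genes of 4 marker lists in single libraries of AngII+VAL, AngII and Control; the bar is the mean and the whiskers are the SD (n = 5). Skeletal muscle genes are high in AngII+VAL and in 2 Control libraries. The mean over the kidney list is 2.23 to 2.53 in AngII+VAL and 0.0764 to 2.58 in AngII. Single kidney genes such as Nphs1 vary between the AngII+VAL libraries. Neuron genes are high in single libraries, and contractile genes are level.

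None of the receptor and signalling lists of smooth muscle had a member past the threshold. Of 16 tested genes of the renin-angiotensin system, 0 were higher and 1 was lower (4.28% of all genes) at an unadjusted p under 0.05, with a median log2 fold change of 0.12, against 0.36 in AngII against Control. Agtr1a, the main vascular receptor that valsartan blocks, had 3.07, 2.94, 4, 8.15 and 2.67 FPKM in AngII+VAL, 9.16, 4.13, 2.82, 7.26 and 16 in AngII and 3.86, 3.23, 2.83, 3.7 and 3.19 in Control (log2 fold change 0.16, SE 0.23, adjusted p = 0.92). The groups overlapped, and the single high AngII+VAL library was AngII+VAL 4, the one with high neuron genes; without it the log2 fold change was −0.070. Agtr1b was too low to test, at 0.535, 1.06, 0.427, 0.835 and 1.79 FPKM in AngII+VAL against 1.08, 0.505, 0.638, 0.713 and 0.843 in Control, as was Agt, the precursor angiotensinogen, at 1.73, 0, 0, 1.54 and 0 FPKM in AngII+VAL against 0, 0, 0, 1.7 and 0.387 in Control. Ace, which makes angiotensin II, averaged 91.8 ± 25.9 FPKM in AngII+VAL, 115 in AngII and 74.6 ± 9.72 in Control (log2 fold change 0.26, SE 0.19, adjusted p = 0.84). Mme, neprilysin, which degrades angiotensin peptides, had a log2 fold change of −0.40 (SE 0.17, adjusted p = 0.72), and Enpep, the aminopeptidase that makes angiotensin III, had a log2 fold change of 0.37 (SE 0.21, adjusted p = 0.81).

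The RGS list, regulators that shorten G-protein signalling, had 7 tested members, with 0 higher and 0 lower at an unadjusted p under 0.05. Of all genes, 2.52% were higher and 4.28% lower at that p. Rgs2, which limits signalling by the angiotensin receptor, averaged 23.9 ± 8.07 FPKM in AngII+VAL and 33.4 ± 14.7 in Control (log2 fold change −0.43, SE 0.30, adjusted p = 0.84), Rgs5 averaged 430.4 ± 113 FPKM in AngII+VAL and 509.6 ± 219 in Control (log2 fold change −0.19, SE 0.27, adjusted p = 0.92), and Rgs7bp had a log2 fold change of −0.30 (SE 0.18, adjusted p = 0.83). In the contractile list, 0 of 29 genes differed at an unadjusted p under 0.05 in either direction (median 0.087). Acta2, smooth muscle actin, was at 3515, 4150.5, 3754, 5244 and 5716 FPKM in AngII+VAL and 3639, 3454, 5585, 3083 and 4548 in Control (log2 fold change 0.15, SE 0.20, adjusted p = 0.92). Myh11, smooth muscle myosin, averaged 517 ± 90.2 FPKM in AngII+VAL and 529.9 ± 82.2 in Control (log2 fold change −0.038, SE 0.16), the kinase gene Mylk averaged 96.3 ± 19 FPKM in AngII+VAL and 97.6 ± 16.4 in Control (log2 fold change −0.024, SE 0.16), and the light chain gene Myl9 averaged 1127 ± 294 FPKM in AngII+VAL and 1045 ± 200.2 in Control (log2 fold change 0.090, SE 0.20). Actg2 and Cnn1, with the smallest p of the list, had a log2 fold change of 0.33 (SE 0.18, adjusted p = 0.80) and a log2 fold change of 0.40 (SE 0.21, adjusted p = 0.80). In calcium and potassium handling, 1 of 21 was lower and 0 were higher without adjustment: Cacnb2, a calcium channel subunit, had 2.78, 2.58, 3.37, 3.74 and 3.26 FPKM in AngII+VAL and 4.53, 4.17, 4.96, 3.77 and 4.69 in Control, without overlap (log2 fold change −0.39, SE 0.11, adjusted p = 0.44). Trpc1, a cation channel, had a log2 fold change of 0.58 (SE 0.27, adjusted p = 0.74).

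Nitric oxide and cyclic GMP relax smooth muscle. Of 12 tested members of that pathway, 3 were lower and 1 was higher at an unadjusted p under 0.05 (median −0.11). Over all genes, 4.28% were lower and 2.52% higher at that p. Gucy1a1, the alpha subunit of the nitric oxide receptor guanylate cyclase, was at 21.5, 22.3, 20.3, 27.1 and 31.5 FPKM in AngII+VAL and 36.7, 31.9, 37.7, 26.9 and 40.1 in Control (log2 fold change −0.49, SE 0.15, adjusted p = 0.47). Only the highest AngII+VAL libraries reached the Control range, and the log2 fold change of AngII against Control was 0.059 (SE 0.18). Pde5a, the phosphodiesterase that degrades cyclic GMP, had a log2 fold change of −0.39 (SE 0.14, adjusted p = 0.61), and the endothelial synthase gene Nos3 had 1.49, 1.49, 1.42, 2.33 and 1.47 FPKM in AngII+VAL against 2.19, 2.09, 3.17, 1.54 and 1.37 in Control (log2 fold change −0.20, SE 0.17, adjusted p = 0.87). Among 15 endothelin and adrenergic receptor genes, 1 was lower and 0 higher: Adra1a, the alpha-1A adrenergic receptor, averaged 1.16 ± 0.598 FPKM in AngII+VAL and 2.4 ± 1.29 in Control (log2 fold change −0.63, SE 0.27, adjusted p = 0.71), and the prostacyclin receptor gene Ptgir had a log2 fold change of 0.23 (SE 0.15, adjusted p = 0.84). Of 24 endothelial genes, 0 differed at an unadjusted p under 0.05 (median −0.015); Ptprb had a log2 fold change of −0.18 (SE 0.10, adjusted p = 0.80) and Plvap a log2 fold change of 0.41 (SE 0.25, adjusted p = 0.83).

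Matrix genes were mostly above Control in AngII+VAL, and none passed. All 6 tested fibrillar collagen genes were higher (47.7% of all genes), 2 of them at an unadjusted p under 0.05 (2.52% of all genes), with a median log2 fold change of 0.46, against 1.18 in AngII against Control. Col1a1, a chain of type I collagen (ENSMUSG00000001506, GRCm38 chr11:94936224-94953042, plus strand), was at 191, 207, 266, 385 and 465 FPKM in AngII+VAL, 401, 435, 1568, 297 and 626 in AngII and 211, 149, 171, 159 and 237 in Control (log2 fold change 0.64, SE 0.26, adjusted p = 0.69). The AngII+VAL libraries spread from the Control range up to the lower part of the AngII range. Col3a1 averaged 358 ± 142 FPKM in AngII+VAL, 801 ± 758 in AngII and 230.2 ± 52.6 in Control (log2 fold change 0.57, SE 0.28, adjusted p = 0.76). It was at 2120 FPKM in AngII 3 and at 345 to 769 in the other AngII libraries. Col5a2 had a log2 fold change of 0.66 (SE 0.24, adjusted p = 0.61). In AngII+VAL against AngII, the median of the fibrillar collagens was −0.84. The mean log2(FPKM + 1) over that list was 6.26 in AngII 3 and 4.08 to 4.66 in the other AngII libraries. The comparisons that use AngII thus include a library that stood apart for these genes.

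Matricellular and adhesive proteins, which bind cells to matrix, had 16 of 20 tested genes higher, 8 of them at an unadjusted p under 0.05 and 0 lower (over all genes 47.7% were higher, and 2.52% higher and 4.28% lower at that p; median 0.28; 0.67 in AngII against Control). Thbs1, thrombospondin-1, a carrier and activator of TGF-beta, was at 13.8, 35.2, 28.1, 28.6 and 36.7 FPKM in AngII+VAL, 20.9, 56.7, 84, 25.7 and 24.9 in AngII and 14.9, 7.14, 12.2, 11.1 and 14.2 in Control (log2 fold change 1.16, SE 0.27, adjusted p = 0.28). Comp, a thrombospondin of cartilage and vessel, was at 16.3, 32.3, 17.4, 34.6 and 27.9 FPKM in AngII+VAL, 17.2, 48.2, 46.6, 27.4 and 18.9 in AngII and 12.4, 9.73, 13.4, 17.4 and 11.5 in Control (log2 fold change 0.91, SE 0.23, adjusted p = 0.35). Most AngII+VAL libraries lay above the Control range for both genes, with a narrow overlap. Fn1, fibronectin, was at 251, 338, 171, 392 and 698 FPKM in AngII+VAL, against 120.5, 89.6, 229, 182 and 197 in Control (log2 fold change 1.09, SE 0.38, adjusted p = 0.59), and the log2 fold change of AngII against Control was 1.36 (SE 0.34). Eln, elastin, had 184, 274, 203, 735 and 689 FPKM in AngII+VAL and 203, 99.8, 137, 153 and 323 in Control (log2 fold change 1.04, SE 0.47, adjusted p = 0.73) and was the only one of 21 elastic fibre genes at an unadjusted p under 0.05 (median 0.073); Efemp2, a fibulin needed for elastic fibres, had a log2 fold change of −0.65 (SE 0.35, adjusted p = 0.80). AngII+VAL 4 and 5 lay above the Control range for Eln and the other AngII+VAL libraries within it, and for Fn1 all but AngII+VAL 3 lay above it.

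Of 11 proteoglycan genes, 2 were higher and 1 lower without adjustment (median 0.23). For this and the next lists, the share over all genes was 2.52% higher and 4.28% lower at an unadjusted p under 0.05. Acan, aggrecan, averaged 9.11 ± 3.61 FPKM in AngII+VAL, 8.75 in AngII and 3.11 ± 1.6 in Control (log2 fold change 1.30, SE 0.33, adjusted p = 0.35), whereas Ogn, osteoglycin, averaged 160.3 ± 29.97 FPKM in AngII+VAL, 235 in AngII and 277 ± 91.4 in Control (log2 fold change −0.75, SE 0.22, adjusted p = 0.47). Among 17 basement membrane genes, 3 were higher and 1 lower (median 0.16): Col15a1 had a log2 fold change of 0.66 (SE 0.23, adjusted p = 0.59), and Lama4, a laminin chain, was lower without overlap, at 26.8, 26.1, 32.1, 28.2 and 30.3 FPKM in AngII+VAL against 38.9, 32.3, 33.8, 35.3 and 37 in Control (log2 fold change −0.30, SE 0.085, adjusted p = 0.43). Of 24 matrix protease and inhibitor genes, 2 were higher and 0 lower (median 0.19). Plat, the tissue plasminogen activator, had a log2 fold change of 0.50 (SE 0.23, adjusted p = 0.73). In the TGF-beta list, 2 of 21 were higher and 0 lower (median 0.20), and Id2 had a log2 fold change of 0.93 (SE 0.31, adjusted p = 0.56). The adventitial fibroblast list had 0 of 20 at an unadjusted p under 0.05 (median 0.054, against 0.47 in AngII against Control); Clec3b had a log2 fold change of −0.38 (SE 0.19, adjusted p = 0.77) and Fap a log2 fold change of 0.22 (SE 0.13, adjusted p = 0.82).

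**Figure D4:**
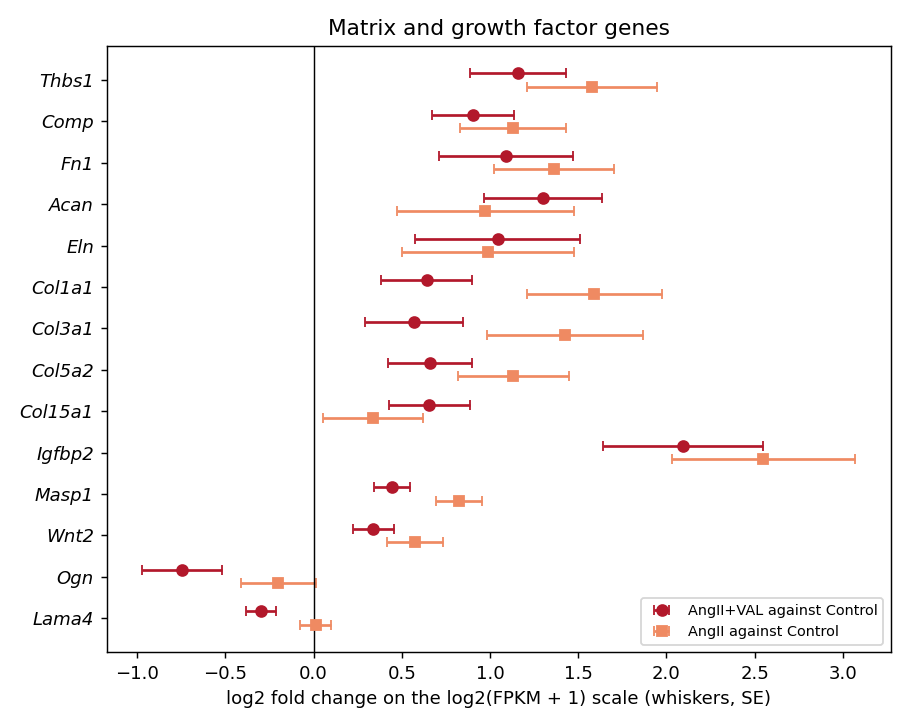
Log2 fold changes with SE for 14 matrix, growth factor and complement genes in AngII+VAL against Control (circles) and AngII against Control (squares); both comparisons use the same Control libraries. The fibrillar collagen genes Col1a1, Col3a1 and Col5a2 lie nearer to 0 in AngII+VAL, while Acan and Eln have similar values in both, and none of the 14 passed the threshold. Among AngII libraries, AngII 3 was far the highest for Col1a1 (1568 FPKM) and Col3a1 (2120 FPKM).

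Growth factor and Wnt genes held some of the values farthest from Control. Igfbp2, an insulin-like growth factor binding protein, was at 17.2, 54.1, 23.5, 62.9 and 96.6 FPKM in AngII+VAL, 39.6, 98.6, 148, 23.6 and 48.7 in AngII and 12.6, 5.67, 11.9, 6.25 and 11.6 in Control. No AngII+VAL library overlapped with Control, and the spread within AngII+VAL was wide (log2 fold change 2.10, SE 0.45, adjusted p = 0.27); the log2 fold change of AngII against Control was 2.55 (SE 0.52). Igf2 had a log2 fold change of −0.44 (SE 0.18, adjusted p = 0.71), and over the 15 tested genes of that axis 1 was higher and 1 lower without adjustment (median 0.13). The share over all genes was 2.52% higher and 4.28% lower at an unadjusted p under 0.05. Of 17 Wnt genes, 2 were higher and 0 lower (median 0.13): the ligand gene Wnt2 had a log2 fold change of 0.34 (SE 0.12, adjusted p = 0.58) and the secreted antagonist gene Frzb a log2 fold change of 0.53 (SE 0.23, adjusted p = 0.72).

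Most mitochondrial and fat genes were below Control in AngII+VAL, with medians nearer to 0 than in AngII against Control, and none passed. Nuclear genes of oxidative phosphorylation were lower in 49 of 54 (median −0.15, against −0.40 in AngII against Control); of all genes 52.3% were lower. At an unadjusted p under 0.05, 3 were lower (4.28% of all genes) and 1 was higher (2.52%). The mean log2(FPKM + 1) over the list overlapped between the groups, at 6.91 to 7.75 in AngII+VAL and 7.15 to 7.71 in Control. Short transcripts as a class were also lower in AngII+VAL, as given below. The part of transcript length in the counts of this list was not tested. Ndufa2, a complex I subunit, was at 85.6, 71.3, 76.4, 78.3 and 62.4 FPKM in AngII+VAL and 85.5, 102, 98, 91.3 and 91.9 in Control (log2 fold change −0.33, SE 0.10, adjusted p = 0.47), and Cox7c, a complex IV subunit, had a log2 fold change of −0.45 (SE 0.16, adjusted p = 0.64). Of the 9 tested genes of the mitochondrial genome, 8 were lower (median −0.26), 2 of them and 1 higher gene without adjustment. The libraries were split for this list. Its mean log2(FPKM + 1) was 11.77 in AngII+VAL 1, 9.95 to 10.36 in the other AngII+VAL libraries and 10.39 to 10.53 in Control. Mt-Nd1 was lower without overlap (log2 fold change −0.53, SE 0.16, adjusted p = 0.47), while mt-Nd6, the gene on the other strand, had a log2 fold change of 0.59 (SE 0.19, adjusted p = 0.55). Mitochondrially encoded genes together took 18.5% ± 3.8 of the FPKM in AngII+VAL, 14.97% ± 4.27 in AngII and 20.2% ± 1.4 in Control (SD, n = 5 each). Fatty acid oxidation genes were lower in 29 of 33 (52.3% of all genes; median −0.22; −0.69 in AngII against Control), with 2 lower and 0 higher without adjustment. Ppara, the receptor that drives these genes, averaged 0.934 ± 0.859 FPKM in AngII+VAL and 4.16 ± 2.5 in Control (log2 fold change −1.36, SE 0.38, adjusted p = 0.41), and its log2 fold change was 0.042 when transcripts listed for 1 group were included. Ehhadh, a peroxisomal enzyme, had a log2 fold change of −1.10 (SE 0.42, adjusted p = 0.67).

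Brown adipocyte genes were lower in 18 of 21 (52.3% of all genes; median −0.14; −0.63 in AngII against Control), 2 of them without adjustment and 0 higher. Ucp1, the uncoupling protein of brown and perivascular fat, was at 1982, 1892, 1537, 919 and 785 FPKM in AngII+VAL and 526, 1778, 2206, 2369.5 and 1444 in Control (log2 fold change −0.15, SE 0.44, adjusted p = 0.96). Its groups overlapped over most of their range. Dio2, the thyroid hormone deiodinase of brown fat, had a log2 fold change of −0.53 (SE 0.23, adjusted p = 0.72), and the brown fat factor gene Ebf2 a log2 fold change of −0.39 (SE 0.16, adjusted p = 0.70). White adipocyte genes were lower in 19 of 24 (52.3% of all genes; median −0.18), 2 without adjustment and 0 higher, and Lpl, lipoprotein lipase, had a log2 fold change of −0.60 (SE 0.23, adjusted p = 0.68) and Cidec had a log2 fold change of −0.31 (SE 0.14, adjusted p = 0.72). Pparg, the adipocyte receptor, had a log2 fold change of −0.12 (SE 0.17, adjusted p = 0.92). Cholesterol and fatty acid synthesis had 1 higher (Sc5d, log2 fold change 0.39, SE 0.16, adjusted p = 0.71) and 1 lower gene (Hsd17b7, log2 fold change −0.47, SE 0.15, adjusted p = 0.49) of 34 (median 0.10). Beside these counts, 2.52% of all genes were higher and 4.28% lower at an unadjusted p under 0.05.

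Chaperone genes of the heat shock list were split, with 6 of 33 tested genes lower and 2 higher at an unadjusted p under 0.05 (4.28% and 2.52% of all genes; median −0.084). Hspd1, the mitochondrial chaperonin HSP60 (ENSMUSG00000025980, GRCm38 chr1:55077835-55088243, minus strand), had 28, 67.4, 28.1, 53.6 and 40.6 FPKM in AngII+VAL, 52.2, 43, 51.9, 56.5 and 45.9 in AngII and 119, 122, 79.2, 115 and 86.5 in Control. Every AngII+VAL and every AngII library lay below every Control library (log2 fold change −1.30, SE 0.25, adjusted p = 0.21; log2 fold change −1.03 (SE 0.22) in AngII against Control). Hspe1, its partner HSP10, whose gene lies beside it, averaged 76.3 ± 7.77 FPKM in AngII+VAL and 102 ± 12.4 in Control (log2 fold change −0.41, SE 0.11, adjusted p = 0.39). Genes of endoplasmic reticulum stress had 0 of 26 at an unadjusted p under 0.05 (median 0.067); Asns had a log2 fold change of −0.27 (SE 0.12, adjusted p = 0.74) and Herpud1 a log2 fold change of 0.34 (SE 0.21, adjusted p = 0.83). Of 28 NADPH oxidase and antioxidant genes, 2 were higher and 1 lower (median 0.069), and heme oxygenase, Hmox1, had a log2 fold change of 0.74 (SE 0.29, adjusted p = 0.68) and superoxide dismutase, Sod1, had a log2 fold change of −0.23 (SE 0.10, adjusted p = 0.72).

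Ribosomal protein genes were lower in 59 of 77 (median −0.10, against 0.12 in AngII against Control), 10 of them and 1 higher gene at an unadjusted p under 0.05 (of all genes 52.3% were lower, and 4.28% lower and 2.52% higher at that p). Rps29 was at 167, 187, 159, 159 and 189 FPKM in AngII+VAL, 214, 259, 329, 342 and 508 in AngII and 359, 266, 339, 224 and 321 in Control, without overlap with either (log2 fold change −0.79, SE 0.14, adjusted p = 0.15). Rps21 was likewise below Control throughout, at 70.03, 76.9, 79, 86.1 and 85.9 FPKM in AngII+VAL against 111, 94.7, 114, 113 and 133 in Control (log2 fold change −0.50, SE 0.10, adjusted p = 0.27). These genes have processed pseudogenes that can share their reads. Their transcripts are short, and short transcripts as a class were lower in AngII+VAL. For 214 genes whose transcripts averaged under 400 nt the median log2 fold change was −0.22, and 30.4% of them were lower at an unadjusted p under 0.05. From 400 to under 600 nt (335 genes) the median was −0.12 and the share 14.6%, and from 600 to under 1000 nt (918 genes) −0.045 and 7.84%. In the bins from 1000 nt upward the medians lay between −0.026 and 0.013 and the shares between 2.44% and 3.95%. Library by library, the median difference of the shortest bin from the Control mean was −0.30 to −0.16 in AngII+VAL, −0.17 to 0.33 in AngII and −0.12 to 0.13 in Control, so all 5 AngII+VAL libraries were below all Control libraries. The length bins were chosen after the data were seen. With the trend of level on length removed in each library, the log2 fold change of Rps29 was −0.61 (adjusted p = 0.13) and that of Rps21 −0.32 (0.44), and Klk1, Miox and Rps6kb1 passed as before. The part of transcript length in the other lower genes was not tested.

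**Figure D5:**
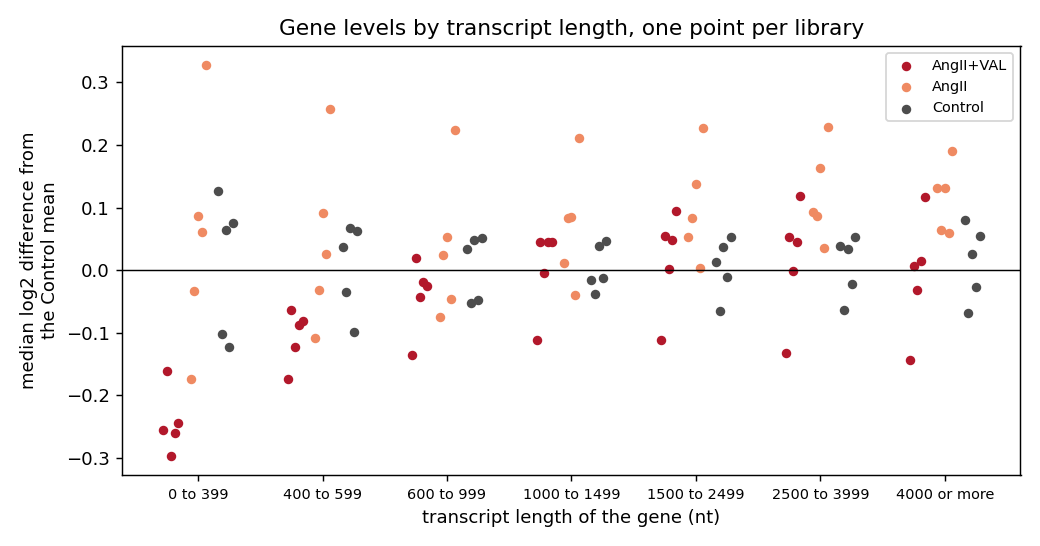
Median difference in log2(FPKM + 1) from the Control mean over the genes of each transcript-length bin, one point per library of AngII+VAL, AngII and Control. In the bin under 400 nt the 5 AngII+VAL libraries lie at −0.30 to −0.16, below all Control libraries, and from 1000 nt upward the groups overlap.

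Other genes among those with the smallest p on the lower side were mostly of little known role. Ndufb1-ps, annotated as a long noncoding RNA at a bidirectional promoter, had 30.6, 17.2, 21.5, 24.7 and 20.6 FPKM in AngII+VAL and 50.02, 45.6, 43.3, 39.5 and 38.7 in Control (log2 fold change −0.91, SE 0.14, adjusted p = 0.12). Gnptab, which encodes the phosphotransferase that tags lysosomal enzymes, had 3.4, 2.56, 4.97, 4.85 and 5.55 FPKM in AngII+VAL against 8.13, 10.1, 8.35, 8.99 and 9.67 in Control (log2 fold change −0.96, SE 0.17, adjusted p = 0.15). Gm19810 (log2 fold change −0.71, SE 0.11, adjusted p = 0.12), Gm12922 (log2 fold change −0.71, SE 0.11, adjusted p = 0.12), Gm830 (log2 fold change −1.05, SE 0.17, adjusted p = 0.13) and Gm42778 (log2 fold change −0.51, SE 0.089, adjusted p = 0.15) are predicted genes, of which Gm19810 and Gm12922 are annotated as processed pseudogenes and may share reads with their parent genes. Neither Gnptab nor any of these 4 predicted genes overlapped between AngII+VAL and Control. Gm42778 and Gm830 were also low in AngII, with log2 fold changes of −0.57 (SE 0.12) and −0.74 (SE 0.17) against Control.

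Immune genes did not pass in any list. Over all genes, 2.52% were higher and 4.28% lower at an unadjusted p under 0.05. Of 7 tested mast cell genes, 1 was higher and 0 lower at an unadjusted p under 0.05 (median 0.19): Tpsb2, a mast cell tryptase with a close paralog, was at 2.19, 3.99, 5.37, 8.59 and 14.4 FPKM in AngII+VAL, 1.64, 3.18, 4.88, 1.21 and 1.26 in AngII and 1.13, 0.746, 0.289, 1.31 and 1.85 in Control. Its AngII+VAL and Control ranges did not overlap (log2 fold change 1.78, SE 0.40, adjusted p = 0.27), while the chymase gene Cma1 had a log2 fold change of 0.29 (SE 0.17, adjusted p = 0.82). Macrophage genes were higher in 21 of 24 (47.7% of all genes; median 0.29), 0 of them at an unadjusted p under 0.05; Lyve1, a marker of resident macrophages and lymphatic vessels, had a log2 fold change of 1.82 (SE 0.94, adjusted p = 0.78), and Pf4 had a log2 fold change of 0.65 (SE 0.36, adjusted p = 0.81). The mean log2(FPKM + 1) over the macrophage list was 3.38, 4.99, 3.97, 3.85 and 4.17 in AngII+VAL 1 to 5 and 3.47 to 3.92 in Control. AngII+VAL 1 thus lay below every Control library, AngII+VAL 4 lay within their range and AngII+VAL 2 lay far above it. In the lymphocyte list 1 of 8 was higher and 0 lower (median 0.077). Igkc, the immunoglobulin kappa constant region, was at 10.1, 1217, 12.7, 36.7 and 219 FPKM in AngII+VAL and 0.378, 0.521, 0.564, 30.7 and 64.6 in Control (log2 fold change 3.56, SE 1.59, adjusted p = 0.73), and Jchain had a log2 fold change of 1.55 (SE 0.97, adjusted p = 0.83). AngII+VAL 2 was far above the others for Igkc. Among the 236 genes listed for AngII+VAL alone, 52 were immunoglobulin variable genes, against 3 of the 163 listed for Control alone, and their sum was 3.60, 552, 4.28, 16.4 and 152 FPKM in AngII+VAL 1 to 5. Most of that sum came from AngII+VAL 2 and 5. The listing rule picks such genes for their level in AngII+VAL, so these counts are not read as support for a difference.

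Complement genes were higher in 16 of 20 (47.7% of all genes; median 0.25), 1 of them at an unadjusted p under 0.05 and 0 lower. Masp1, a protease of the lectin pathway, was at 1.14, 1.28, 1.5, 1.53 and 1.36 FPKM in AngII+VAL, 1.41, 2.31, 1.71, 2.22 and 2.91 in AngII and 0.793, 0.699, 0.585, 0.904 and 0.692 in Control (log2 fold change 0.44, SE 0.10, adjusted p = 0.28). The AngII+VAL mean lay between those of the other groups, and the log2 fold change of AngII against Control was 0.83 (SE 0.13). Masp1 was the 1 complement gene counted above, and among these 10 libraries it reached the filter of 1 FPKM in 5 through AngII+VAL alone. Neither that count nor its lack of overlap with Control is read as support. At an unadjusted p under 0.05, 2.52% of all genes were higher and 4.28% lower. Cfp, properdin, had a log2 fold change of 0.53 (SE 0.33, adjusted p = 0.83). Of 24 interferon response genes, 2 were lower and 0 higher (median −0.13): Gbp2, a guanylate-binding protein, averaged 3.98 ± 2.72 FPKM in AngII+VAL and 15.3 ± 10.1 in Control (log2 fold change −1.64, SE 0.53, adjusted p = 0.53), and Xaf1 had a log2 fold change of −0.45 (SE 0.19, adjusted p = 0.70). Chemokine, cytokine and adhesion genes had 0 of 18 at an unadjusted p under 0.05 (median 0.16). In that list the monocyte chemokine gene Ccl2 was below the filter, at 0.958, 1.84, 2.09, 1.48 and 0.679 FPKM in AngII+VAL and 0.214, 0.976, 0.866, 1.38 and 0.573 in Control, Ccl9 had a log2 fold change of 0.43 (SE 0.27, adjusted p = 0.83) and Cxcl14 a log2 fold change of 0.33 (SE 0.23, adjusted p = 0.84). MHC class II and dendritic cell genes had 0 of 10 (median −0.014; H2-DMb2, log2 fold change −0.34, SE 0.37, adjusted p = 0.89; Clec10a, log2 fold change 0.085, SE 0.16, adjusted p = 0.94), and erythrocyte and platelet genes 0 of 11 (median 0.30; Hba-a1, log2 fold change 0.72, SE 0.40, adjusted p = 0.81).

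Other lists held few differences, beside shares over all genes of 2.52% higher and 4.28% lower at an unadjusted p under 0.05. Of 19 circadian clock genes, 1 was lower and 0 higher at an unadjusted p under 0.05 (median 0.11). Cry1, a repressor of the clock, was at 2.47, 2.79, 2.74, 2.88 and 2.38 FPKM in AngII+VAL and 3.45, 3.6, 4.71, 3.94 and 4.81 in Control, without overlap (log2 fold change −0.47, SE 0.11, adjusted p = 0.28), and Nfil3, a clock output factor, had a log2 fold change of −0.75 (SE 0.36, adjusted p = 0.76). Among 24 immediate early genes 1 was lower (Jun, log2 fold change −0.39, SE 0.15, adjusted p = 0.68) and 0 higher (median −0.069), and Rcan1, a target of calcineurin, had a log2 fold change of 0.22 (SE 0.13, adjusted p = 0.82). In the glucocorticoid list 0 of 19 differed (median 0.043; Hsd11b1, log2 fold change 0.96, SE 0.55, adjusted p = 0.82; Fkbp5, log2 fold change 0.49, SE 0.29, adjusted p = 0.83). Of 12 cell cycle genes, 1 was higher and 0 lower (median 0.035; Ube2c, log2 fold change 0.61, SE 0.26, adjusted p = 0.71; Cdc20, log2 fold change 0.44, SE 0.21, adjusted p = 0.75). Schwann cell genes had 0 of 12 (median 0.10; Mbp, log2 fold change 0.30, SE 0.17, adjusted p = 0.82; Mal, log2 fold change 0.23, SE 0.21, adjusted p = 0.88), the 4 tested of 24 neuron genes 0 (median 0.33; Isl1, log2 fold change 0.23, SE 0.20, adjusted p = 0.87; Uchl1, log2 fold change 0.43, SE 0.74, adjusted p = 0.93), the 4 tested mesothelial genes 0 (Lrrn4, log2 fold change −0.55, SE 0.35, adjusted p = 0.84; Krt18, log2 fold change 0.16, SE 0.15, adjusted p = 0.88) and the 2 tested adrenal cortex genes 0 (Star, log2 fold change −0.19, SE 0.094, adjusted p = 0.76; Mrap, log2 fold change 0.026, SE 0.14, adjusted p = 0.98). Star was at 0.891, 0.921, 0.822, 0.857 and 0.905 FPKM in AngII+VAL against 1.01, 1.04, 1.2, 1.24 and 1.26 in Control. It reached the filter of 1 FPKM in 5 libraries through Control alone, so no difference is read from these ranges.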

How the data were processed

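Whole-transcriptome RNA of the abdominal aorta was measured in 30 libraries, of which 10 (AngII+VAL and Control) enter the main comparison and 5 (AngII) stand beside them. The authors deposited FPKM per transcript for each library; that unit was read from the values, since value times transcript length gave whole reads, within 0.1 read, for about 99% of low values. Per the submitters' processing notes the build was mm10 and limma was used; the aligner, assembler and quantifier are not given in the sources used here. Per the values, a transcript was listed where its mean reached 0.5 FPKM in its own group or in AngII, so low transcripts are missing by group.

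Groups come from the group label. Annotated transcripts listed for both groups were summed to 14577 genes (GENCODE M21, GRCm38). The 11928 genes that reached 1 FPKM in 5 or more of the 10 libraries were tested on log2(FPKM + 1) with limma 3.58.1 (R 4.3.3; trend and robust moderation, two-sided), adjusted by Benjamini-Hochberg at 0.05, and 2649 were not tested. Sums and summaries were made in Python 3.11.15 with pandas 2.3.3 and numpy 2.4.6, and figures with matplotlib 3.10.9. The limma script was tested on simulated data. The 45 gene lists, the members and the tests were chosen with earlier results of these data known. Named genes were, per direction, called genes of at least 5 FPKM without overlap, filled to 8 by the smallest p, then a fixed panel of 23, up to 4 called members or else the 2 with the smallest p in each list, and up to 4 transcripts; some named genes are not reported here. Alternatives changed the pseudocount, filter, scaling, moderation, weights, covariates, transcripts summed, test and libraries.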

Additional observations from a re-analysis of the deposited data

Results flagged for a closer look

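In 237 groups of 5 libraries, formed by the named genes in AngII+VAL and in Control, 23 held 1 library whose gap to the nearest other exceeded Dixon's 95% critical value (0.71 of the range). For normally distributed values, chance alone flags about 1 in 20 groups. The rule was applied to FPKM without a log, so that rate may not hold here, and genes of one tissue are not independent.

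AngII+VAL 1 was high for the kidney genes Klk1 (6.13 FPKM; other AngII+VAL libraries up to 4.12), Kap (92.1; up to 70.5) and Cltrn (5.00; up to 3.77) and for the mesothelial gene Lrrn4 (2.69; up to 1.13), and low for Cdc20 (0.538; others from 1.58). AngII+VAL 2 was high for Igkc (1217; up to 219), Pf4 (42.4; up to 15.9) and Ccl9 (41.3; up to 17.2). AngII+VAL 3 was high for Clec10a (4.75; up to 2.87), Cxcl14 (6.78; up to 3.39), Hsd11b1 (58.4; up to 43.2) and Mrap (123; up to 87.1). AngII+VAL 4 was high for Agtr1a (8.15; up to 3.999) and Nos3 (2.33; up to 1.49), and AngII+VAL 5 for Pde5a (16.5; up to 13.3) and Tnnt3 (134; up to 22.9).

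In Control, library 1 was high for Enpep (14.99 FPKM; other Control libraries up to 9.54), Ptprb (33.8; up to 25.9), Cacna1s (7.70; up to 1.94) and Mal (2.17; up to 1.21). Control 4 was high for Agt (1.70; up to 0.387) and Adra1a (4.64; up to 2.13), and Control 2 was low for Ccl9 (10.9; others from 13.9). Without AngII+VAL 4 the log2 fold change of Agtr1a was −0.07.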

How the results depend on the processing

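The main comparison gave 2 higher and 1 lower gene. Higher genes numbered 0 with a pseudocount of 0.1, with skeletal muscle and neuron scores as terms, with voom on the recovered reads and with all 30 libraries, 46 without Control 1 and 2, and 14 over the union of the lists. Lower genes numbered 2 in the model of AngII+VAL, AngII and Control, 3 without Control 1 and 2, 6 over the union and 0 with all 30 libraries. Leaving out single libraries gave 1 to 10 higher genes and 1 to 8 lower genes. Of 9 transcripts called, 3 passed with a pseudocount of 0.1, and 5 to 25 passed with single libraries left out. AngII+VAL against AngII gave 0 genes, and 0 to 2 with single libraries left out, the 2 without AngII+VAL 1 or without AngII 5. AngII against Control gave 0 genes, 3 with all 30 libraries, and 0 to 1 with single libraries left out, the 1 without AngII 5, Control 4 or Control 5. The cause of these moves was not tested.

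Over 117 named genes and up to 24 settings each, 2745 of 2805 values kept their direction and side of the threshold, 13 fell short of it, 19 newly passed it and 28 changed sign, in 13 genes, none of which had passed. With the skeletal muscle and neuron scores as terms, the log2 fold changes that changed sign were 0.042 for Mylk, 0.0054 for Pparg, 0.25 for Ucp1, 0.12 for H2-DMb2 and −0.23 for Ckm. Removing the length trend gave 0.026 for Mylk, the union of lists 0.042 for Ppara, and leaving out Control 1 and 2 −0.019 for Clec10a. With single libraries left out, log2 fold changes ranged from −0.070 to 0.26 for Agtr1a, −0.33 to 0.027 for Rgs5, −0.12 to 0.021 for Myh11, −0.11 to 0.054 for Mylk, −0.014 to 0.20 for Myl9, −0.52 to 0.038 for Ucp1, −0.039 to 1.02 for Uchl1, −0.045 to 0.15 for Clec10a and −0.084 to 0.10 for Mrap.

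No paired analysis was possible because the labels give no replicate number that ties an AngII+VAL library to a Control library. At the depth of 74420000 to 79810000 reads, 3 reads of a transcript of 2 kb come to 0.0188 to 0.02015 FPKM, a floor for counting error only. The added 1 FPKM compresses the fold changes of genes near that level. Transcripts under the listing limit have no value in one group, and setting them to 0 is an assumption. Assembled transcripts have no position here.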
